A study of Mus musculus with 20 samples.

Results

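Of 22758 autosomal promoter windows with a value in each of 6 densely covered control mouse blastocysts, 291 (1.28%) stood between 25% and 75% methylation in all 6 of those embryos. These windows are described here as intermediate windows. They were chosen from control replicates 1, 2, 3, 4, 5 and 10 alone, out of 54034 windows of 3500 bp on build GRCm39, and the values of those 6 embryos (the choosing controls) are therefore a description and no result. Joined where they overlapped, the 291 windows formed 267 loci. Control replicates 6, 7, 8 and 9 (the held-out controls) and the 10 embryos of the mutant group took no part in the choice.

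Intermediate methylation that recurs from embryo to embryo is the pattern an imprinted promoter gives. In imprinting, the copy inherited from a given parent carries methylation set in the germ line and the other copy does not, so a mixture of cells averages between the extremes. Blastocysts are otherwise poor in DNA methylation, because most of it is removed after fertilisation, while imprints are copied at each division by the maintenance methyltransferase DNMT1 with its partner UHRF1. A promoter methylated in some cells of an embryo and not in others gives the same average, and the level of a window cannot tell these cases apart.

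The control group and the mutant group held 10 single blastocysts each. Mutant embryos developed from oocytes carrying the Padi6P620A allele and are labelled Padi6-mutant. PADI6 belongs to the subcortical maternal complex, which the oocyte makes and the early embryo inherits. Controls are labelled only as Control, with no allele named. The labels give no strain, mother, litter or sex, so embryos may share a mother and the spread is that between these embryos. Each blastocyst is a mixture of inner cell mass and trophectoderm cells, whose markers were not analysed here.

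Coverage differed widely between embryos, and read depth is unknown. The choosing controls and 3 mutant embryos (replicates 11, 12 and 14) had a value in over 30000 windows each, and are called dense. The held-out controls had a value in 4984 to 17002 windows and the other 7 mutant embryos in 2875 to 13847, and are called sparse. Among the 291 intermediate windows, the held-out controls had 141, 105, 112 and 43 values (replicates 6 to 9), the dense mutants 262 to 278 and the sparse mutants 34 to 114. A median of 1 held-out control and 4 mutant embryos gave a value in an intermediate window. No held-out control gave a value in 52 of the windows, and 0 windows had a value in all 10 mutants.

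Most intermediate windows lay alone. Of the 267 loci, 253 held a single window, 9 held 2 and 5 held 3 or more. Within 100000 bp of 36 windows (12.4%) lay another intermediate window that did not overlap it, and 14 of those 36 belonged to a single stretch of chromosome 12 that is described below. Of the 841 comparison windows, windows of like mean level defined further on, 144 (17.1%) had another of their kind within that distance. A larger set has more neighbours of its own kind by number alone, and there were 841 comparison against 291 intermediate windows. These shares therefore do not show which kind of window is more clustered. Chromosome 12 had the highest density, with 31.0 intermediate windows per 1000 windows covered in all 6 choosing controls, against 12.8 over all autosomes. Outside that stretch chromosome 12 stood at 18.5 per 1000, close to chromosomes 4 (18.9) and 5 (18.03) and under chromosome 8 (24.1). The lowest densities were on chromosomes 7 (5.20), 2 (5.35) and 14 (5.95). Chromosome 7, known for several imprinted clusters, gave 9 intermediate windows among 1731. Windows were not matched to genes here, because the gene and promoter tables at hand are on build GRCm38, so positions and not genes are named and no sequence is shown.

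Windows close to the intermediate windows, but not overlapping them, averaged a low level. Outside the chromosome 12 stretch, 132 other windows lay up to 10 kb from an intermediate window without overlapping it. They averaged 15.3% ± 1.47 (SD, n = 6) in the choosing controls, against 12.1% ± 1.35 for the 20290 windows more than 200 kb away. In the dense mutants the same near and far windows averaged 9.80% and 10.3%. The 25 other windows that did overlap an intermediate window averaged 33.4% ± 6.53 (SD, n = 6) in the choosing controls and 19.9% in the dense mutants. With the stretch included, the near windows without overlap averaged 19.2% in the choosing controls.

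In controls that had not chosen them, the intermediate windows averaged the same level within the spread between embryos, which was wide. The held-out controls averaged 46.9% (replicate 6), 63.7% (replicate 7), 46.1% (replicate 8) and 26.2% (replicate 9). Replicate 7 was high, with 42.9% of its values there at exactly 100%, and replicate 9 was low, with 48.8% at exactly 0%. Their mean was 45.7% ± 15.3 (SD, n = 4), against 44.7% ± 2.21 (SD, n = 6) in the choosing controls, a difference of 0.98 percentage points (SE 7.72). Without replicate 7 that difference was -5.02 points and without replicate 9 it was 7.48 points. In single windows the held-out values did not stay intermediate: on average 43.6% of the values of a held-out control lay from 25% to 75%, 27.3% were exactly 0% and 21.2% exactly 100%. In the other 22467 covered windows 16.3% of held-out values lay from 25% to 75%.

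How much of the level came from the choice itself was read in the dense controls. Windows were chosen on 5 of the 6 choosing controls and read in the sixth, which was repeated for each of the 6. The embryo left out averaged 38.7% ± 4.08 (SD, n = 6) over 387 to 491 windows, with 41.7% for replicate 1, 37.9% for replicate 2, 41.4% for replicate 3, 37.5% for replicate 4, 42.4% for replicate 5 and 31.5% for replicate 10. Between 59.3% and 75.2% of its values lay from 25% to 75%. A dense control thus stood lower in windows it had not helped to choose than the 44.7% average of the 291.

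**Figure D1:**
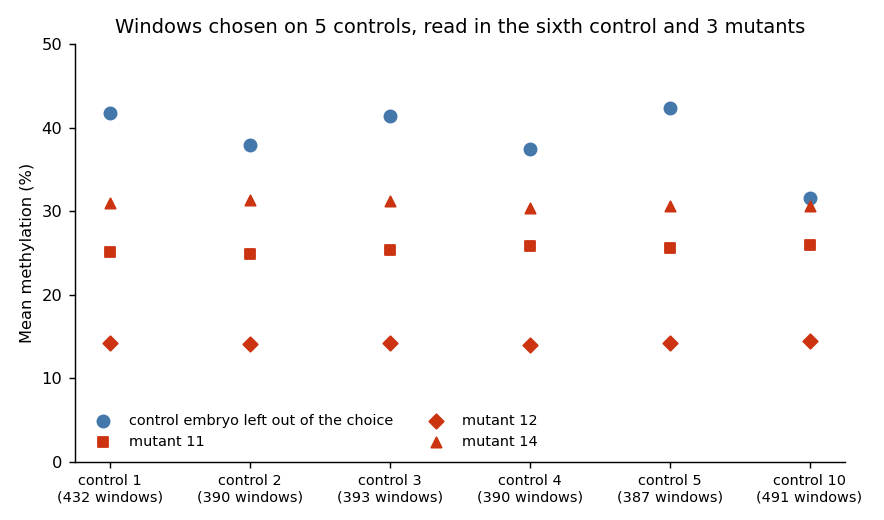
Mean methylation in percent (y axis) over windows chosen on 5 of the 6 choosing controls, read in the control left out of the choice (circles, named on the x axis with its number of windows) and in mutant replicates 11, 12 and 14 (squares, diamonds and triangles) over the same windows. Controls ran from 31.5% to 42.4%, and the mutants of replicates 11, 12 and 14 averaged 25.5%, 14.2% and 30.8%.

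The dense mutants were lower over those same windows. Mutant replicate 11 averaged 25.5%, replicate 12 averaged 14.2% and replicate 14 averaged 30.8% (means over the 6 choices). All 3 lay below the control read beside them in each of the 6 readings, though in the windows read in control replicate 10 the gap was narrow (31.5% against 30.6% in mutant replicate 14). The dense mutant mean over these readings was 23.5%. The 6 readings use overlapping windows and the same 3 mutants, so they are not independent.

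Over the 291 windows the mutant embryos also averaged less than the held-out controls. The dense mutants stood at 26.7%, 14.5% and 31.4% (replicates 11, 12 and 14) and the sparse mutants between 20.5% and 37.1%. All 10 lay below the held-out mean of 45.7%, but 4 of the 10 lay below the lowest held-out control, so the groups overlapped. Mutants averaged 27.4% ± 6.63 (SD, n = 10), -18.3 percentage points against the held-out controls (SE 7.95), or 60.0% of their level. No p-value is given for an average over windows that were chosen by their level. The difference was -24.8 points without control replicate 9, -12.3 points without control replicate 7 and -9.52 points with values of exactly 0% and 100% left out. It was -16.4 points outside the chromosome 12 stretch, and -26.2 points in the 3 held-out controls and 6 mutants with at least 100 values in these windows.

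Mutant replicate 12 was the lowest embryo in the intermediate windows, and it was also the lowest in the 22467 other covered windows, at 6.45%. Mutant replicate 14 was the highest mutant in those other windows, at 15.0%. There the mutants averaged 11.4% ± 2.53 (SD, n = 10) and the held-out controls 14.4% ± 3.24 (SD, n = 4). That difference was -2.98 points (SE 1.81), which left the mutants at 79.3% of the control level. Set against their own level in those other windows, the mutants stood 1.82-fold to 3.08-fold higher in intermediate windows and the held-out controls 2.22-fold to 3.79-fold. The 3 dense mutants stood 2.73-fold, 2.24-fold and 2.09-fold higher (replicates 11, 12 and 14). These ranges overlapped.

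**Figure D2:**
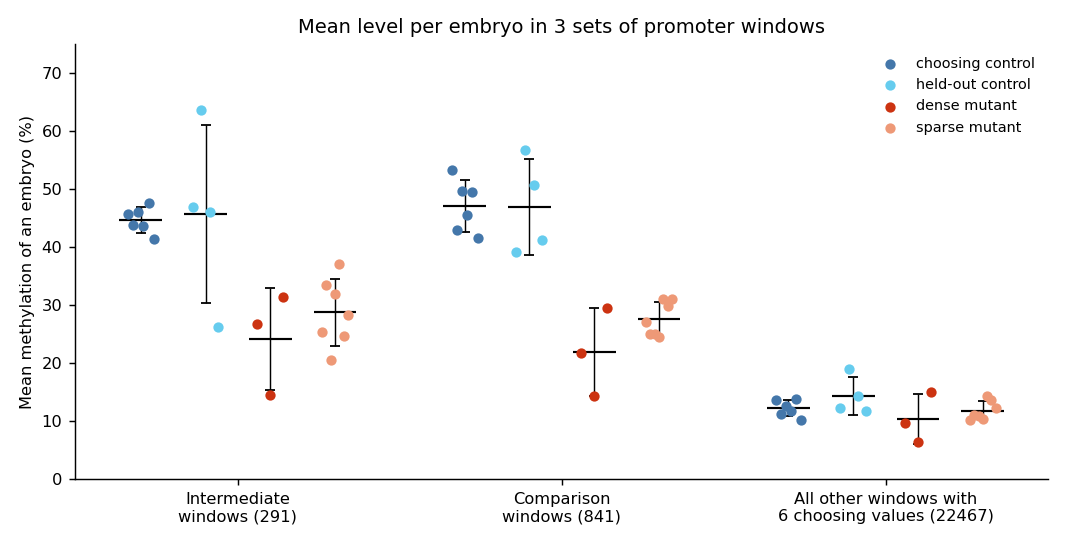
Mean methylation in percent per embryo (points) in the 291 intermediate windows, 841 comparison windows and 22467 other windows, by class of embryo. Horizontal lines are class means and bars are 1 SD. Mutant points lie at 14.5% to 37.1% in intermediate windows, where the held-out controls spread from 26.2% to 63.7%.

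Windows of a like mean level whose choosing controls differed more gave values close to those of the intermediate windows. These comparison windows were 841 autosomal windows whose mean over the choosing controls lay from 40% to 60% but which had at least 1 of the 6 values outside 25% to 75%. Their held-out controls averaged 46.9% ± 8.29 (SD, n = 4) and their mutants 25.9% ± 5.11 (SD, n = 10), a difference of -21.0 points (SE 4.45), which left the mutants at 55.3% of the control level. In these windows all 10 mutants lay below the lowest held-out control. Dense mutants averaged 21.9% in comparison windows and 24.2% in intermediate windows, a gap smaller than the SD between the 3 embryos (7.57 and 8.74 points). The share of held-out control values from 25% to 75% was also alike, at 40.7% ± 7.07 in comparison windows and 43.6% ± 8.78 in intermediate windows (SD, n = 4).

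Single windows were compared between mutants and held-out controls with limma, over all 11882 windows with at least 2 held-out control and 3 mutant values that varied within a group. Among these were 109 of the 291 intermediate windows. None of the 109 passed an adjusted p of 0.05 (Benjamini-Hochberg over all windows), against 45 of all windows tested (0.379%). At an unadjusted p under 0.05, 26 of the 109 (23.9%) were lower and 0 higher in mutants, whereas 5.7% of all tested windows were lower and 0.438% higher. With the dense mutants alone, 26 of 99 were at an unadjusted limma p under 0.05, 19 of them lower and 7 higher. In that fit 649 of all 9918 windows tested were at an unadjusted limma p under 0.05, in either direction. These 649 were not split by direction, so neither the 19 nor the 7 has a matching share. Comparison windows gave nearly the same share, with 49 of 204 (24.0%) lower and 1 higher, and 3 of the 204 passed the adjusted threshold. Whether the 2 kinds of window differ in that count was not tested. All mutant values lay below all held-out values in 20 of the 109 windows (18.3%), against 4.66% of all tested windows and 39 of 204 comparison windows. Outside the chromosome 12 stretch it was 13 of 101 (12.9%). All mutant values lay above all held-out values in 0 of the 109, against 1.78% of all tested windows. The median difference of the 109 windows was -23.9 points with 84 of them (77.1%) lower. Over all tested windows the median was 1.06 points with 44.7% lower. Comparison windows were again alike, with a median of -23.1 points and 76.5% lower. An exact rank-sum test over embryos, adjusted in the same way, called 0 of the 109, with 5 at an unadjusted p under 0.05. It also called 0 of all 11882 windows, with 209 unadjusted. With so few held-out values per window, its p can hardly be small enough to pass that adjustment. The 0 among the 109 therefore decides nothing about them.

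The intermediate window closest to the threshold lay on chromosome 5 from 150367247 to 150370746. Held-out controls 6 and 8 were both at 100%, and mutants 11, 12, 13 and 14 at 25%, 25%, 0% and 30%. The groups did not overlap, and the difference was -80.0 points (SE 9.46, limma adjusted p = 0.0552). The choosing controls of this window ran from 25% to 47.1%, below both held-out controls. The rule confined those values, so they are no independent reference, and which group departed was not tested. This window passed with dense mutants alone, without control replicate 9 and without mutant replicate 13. The window on chromosome 12 from 109702553 to 109706052 had 75% and 66.7% in held-out controls 6 and 9 and 25%, 14.3% and 11.1% in the 3 dense mutants (-54.0 points, SE 6.52, limma adjusted p = 0.0972). The window on chromosome 11 from 63852052 to 63855551 had 75% and 60.0% in held-out controls 6 and 8. Its 7 mutant values ran from 0% to 33.3%, with no overlap between the groups (-52.5 points, SE 11.1, limma adjusted p = 0.125). The window on chromosome 17 from 34255411 to 34258910 had 51.3% and 50.0% in held-out controls 6 and 7, and 6 of its 8 mutant values were under 10%. Mutant replicate 11 stood at 50.0% there, and the limma adjusted p was 0.295. This window passed without that embryo, and with sparse mutants alone. A further 3 intermediate windows passed in other settings. On chromosome 5 from 113635199 to 113638698, with means of 69.8% in 3 held-out controls and 7.19% in 5 mutants, this was with whole numbers over 100 left out and without control replicate 9. On chromosome 8 from 106034033 to 106037532 (87.2% in 3 held-out controls, 29.5% in 4 mutants) it was without control replicate 6. On chromosome 11 from 53663522 to 53667021 (100% in 2 held-out controls, 17.3% in 6 mutants) it was without mutant replicate 11. These windows were named after their values were seen.

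Read window by window, the dense mutants fell on different sides of 25% in most windows. In 236 intermediate windows all 3 dense mutants had a value. All 3 values were under 25% in 53 windows (22.5%), all 3 lay from 25% to 75% in 20 (8.47%), and in 162 (68.6%) some were under 25% and others not. In comparison windows these shares were 19.9%, 5.89% and 73.1% of 577. The mean of the 3 dense mutants had a median of 22.6% over the 236 windows (quartiles 14.2% and 31.3%), and ran from 0% to 73.0%. It lay under 10% in 29 windows and at 40% or more in 30. Across the 236 windows the choosing control mean and the dense mutant mean had a Pearson r of 0.04, over a control range that the choice had narrowed to 31.3% to 65.4%. Between pairs of dense mutants r was 0.09, 0.21 and 0.06 over 245 to 260 windows, some of which overlap.

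**Figure D3:**
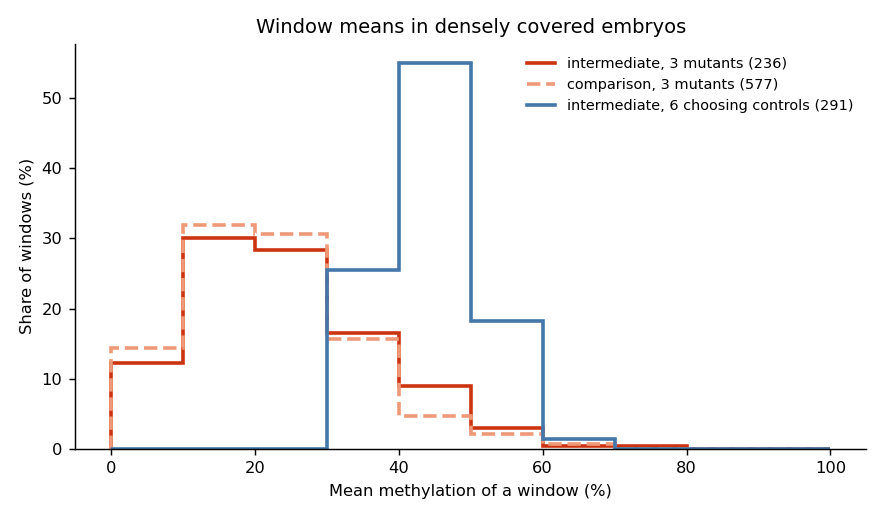
Share of windows in percent (y axis) by mean methylation in bins of 10 points (x axis), for the 3 dense mutants in 236 intermediate windows and 577 comparison windows and for the 6 choosing controls in the 291 intermediate windows. The control outline is set by the choice; both mutant outlines peak at 10% to 30%, with medians of 22.6% and 21.4%.

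The lowest dense mutant means over loci covered in all 3 were between 0% and 4.76%. On chromosome 8 from 110151877 to 110155376 the dense mutants were at 0% in all 3, held-out control 8 at 66.7% and the choosing controls at 41.7% to 50%. On chromosome 18 from 61566773 to 61570272 the dense mutants were again all at 0%, sparse mutant 15 at 50.0% and held-out control 7 at 100%. These were the 2 windows in which all 3 dense mutants stood at exactly 0%.

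Each of the other 4 lowest loci had at least 1 dense mutant at exactly 0%. The window on chromosome 12 from 100987528 to 100991027 had 0%, 6.67% and 0% in mutants 11, 12 and 14, and 14.3%, 0% and 50.0% in held-out controls 6, 7 and 8. The window on chromosome 12 from 112625286 to 112628785 had 8.33%, 0% and 0%, with 16.7% in its only held-out control. On chromosome 14 from 25531863 to 25535362 the values were 0%, 0% and 14.3%, with 90.0% in held-out control 6. On chromosome 8 from 121367689 to 121371188 they were 0%, 0% and 13.8%, but held-out controls 6 and 8 were at 0% as well. Low mutant values were thus accompanied by high held-out control values at some of these loci and not at others, with 1 to 3 held-out embryos at each.

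In the 6 loci with the highest dense mutant means, mutant 11 was at 85.0% or above and mutant 12 at 35.7% or below, with mutant 14 between 33.3% and 100%. On chromosome 4 from 109017895 to 109021394 mutants 11, 12 and 14 were at 100%, 35.7% and 83.3%, with held-out control 6 at 50.0%. On chromosome 12 from 109527126 to 109530625 they were at 100%, 0% and 100%, and 2 held-out controls averaged 88.9%. This window is the first intermediate window of the chromosome 12 stretch described below. On chromosome 2 from 181229262 to 181232761 they were at 100%, 0% and 75%, with sparse mutants 13 and 15 at 0% and 14.3%. On chromosome 15 from 75936238 to 75939737 they were at 85.7%, 12.1% and 70%, and the 9 mutants with a value ran from 0% to 85.7% around a median of 50.0%. On chromosome 9 from 99201879 to 99205378 they were at 85.0%, 11.1% and 56.2%. On chromosome 4 from 62621218 to 62624717 they were at 100%, 19.05% and 33.3%, and 3 sparse mutants there were at 0%.

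The locus with the most intermediate windows stood at a control level in all 3 dense mutants. It lay on chromosome 1 from 24650992 to 24658278, held 7 overlapping windows and was covered in 4 of 4 held-out controls and 9 of 10 mutants, more than any other locus of 3 or more windows. Its coverage was unusual, with 8.57 mutant values per window against a median of 4 over the intermediate windows. How reads mapped there was not examined. Averaged over its windows, the choosing controls ran from 33.5% to 52.5% (mean 39.8%) and the held-out controls stood at 24.2%, 39.6%, 27.7% and 40.4%. Mutants 11, 12 and 14 were at 45.5%, 45.2% and 50.5%, above every held-out control. Sparse mutants 13 and 15 were also high, at 53.0% and 57.2%, whereas mutants 16, 18, 19 and 20 were low, at 7.58%, 22.2%, 4.32% and 16.7%. The mutant mean was 33.6% ± 20.7 (SD, n = 9) and that of the held-out controls 32.98% ± 8.22 (SD, n = 4). Mutant 12, the lowest embryo on average over the intermediate windows, stood here at the level of the other dense mutants, except in the last window, where it was at 0%. Neighbouring windows among the 7 overlap and share sequence, so they are not 7 separate measurements, though the first and the last do not overlap. Of the 20 intermediate windows in which all 3 dense mutants lay from 25% to 75%, 6 were in this locus and 14 elsewhere, in 13 further loci.

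**Figure D4:**
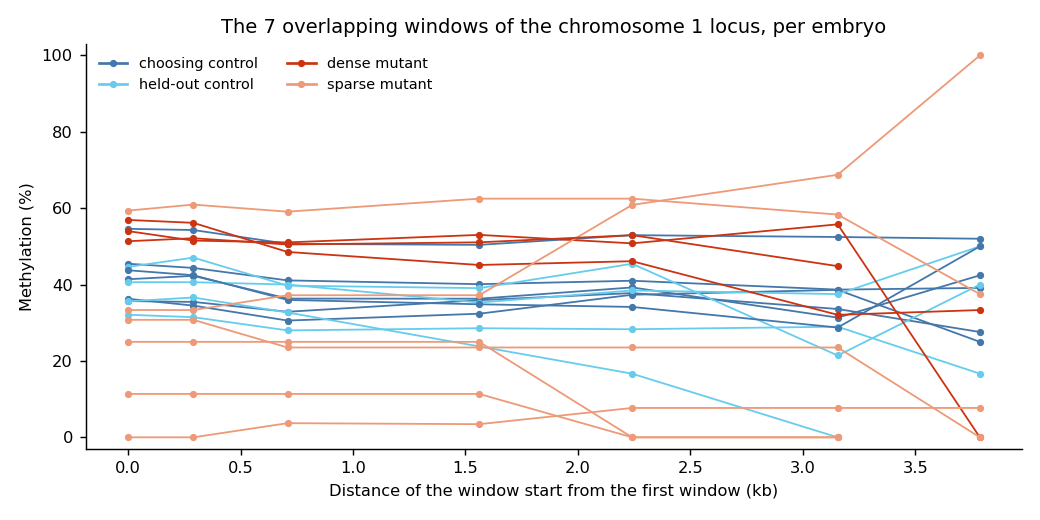
Methylation in percent (y axis) of each embryo in the 7 overlapping windows of the chromosome 1 locus, against the distance of the window start from the first window in kb (x axis). Lines join the values of an embryo. The 3 dense mutants lie at 45.1% or above in the first 5 windows, while 4 sparse mutants lie lower, at 0% to 30.8%.

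Chromosome 12 held 14 intermediate windows in 7 loci between 109527126 and 109707443. The distal part of mouse chromosome 12 is known for the imprinted Dlk1-Dio3 domain, whose control region is methylated on the copy from the father. Within a stretch around these windows, with bounds set after the values were seen, 61 windows were covered in all choosing controls and 14 of them (23.0%) were intermediate. The 47 others had the same mean level, 49.0% in the choosing controls against 47.9% for the 14, so the rule took only some of the windows of this level. In the 14 windows mutants 11, 12 and 14 stood at 31.7%, 10.1% and 28.3%, each with 14 values. Held-out controls 6 and 8 stood at 77.3% (12 values) and 53.7% (7 values), and controls 7 and 9 had 1 and 2 values there. Averaged in this way, the held-out controls lay above the dense mutants without overlap, but they also stood 26.5 points (SE 10.2) above the choosing controls. The dense mutants were at -51.1 points against the held-out controls and at -24.6 points against the choosing controls. Values of the choosing controls picked these 14 windows, so both contrasts with them are descriptions and no result. Sparse mutants had few values there: mutant 17 was at 0% in 4 windows, mutant 13 averaged 6.25% in 2, mutant 15 was at 0% in 1 and mutant 19 averaged 33.3% in 3.

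Within this stretch 3 loci held 3 or more windows. From 109644953 to 109649317 the dense mutants were at 50.0%, 4.85% and 15.1% (replicates 11, 12 and 14) and held-out control 6 at 100%, as was control 7 in the single window it covered. From 109675237 to 109679743 they were at 12.5%, 15.5% and 34.0%, sparse mutant 17 was at 0%, and held-out controls 6 and 8 at 50.0% and 43.9%. From 109701867 to 109707443 they were at 29.2%, 15.1% and 9.82%, with sparse mutants 13, 15 and 19 at 0% and held-out controls 6, 8 and 9 at 83.3%, 50.0% and 66.7%. In all 3 loci every mutant mean lay below every held-out control mean, with 2 or 3 held-out embryos at each. Among all single windows tested, 4.66% had every mutant value below every held-out value. The first intermediate window of the stretch, from 109527126 to 109530625, was not separated in this way. Mutants 11, 12 and 14 stood there at 100%, 0% and 100%, and 2 held-out controls averaged 88.9%.

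**Figure D5:**
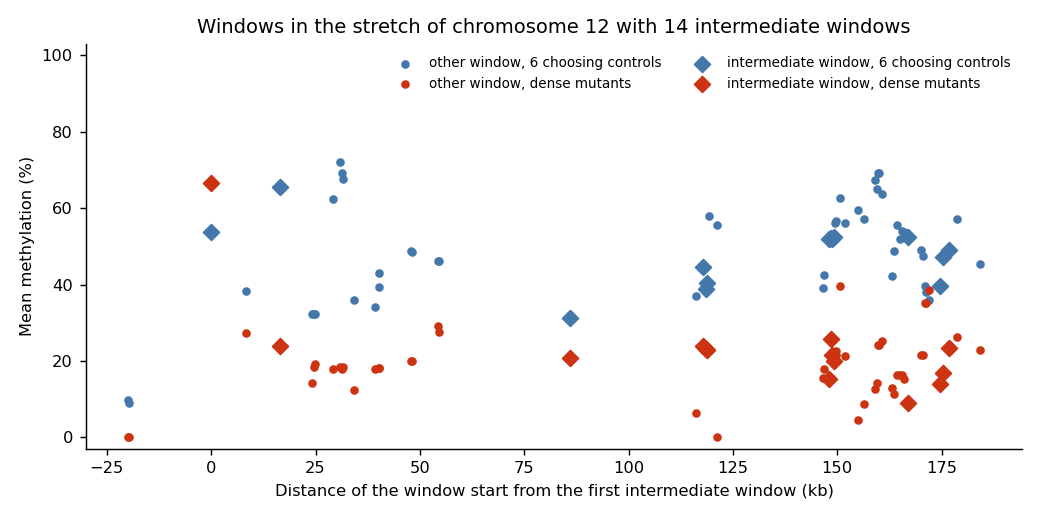
Mean methylation in percent (y axis) of the 61 covered windows of the chromosome 12 stretch in the 6 choosing controls (blue) and the dense mutants (red), against the distance of the window start from the first intermediate window in kb (x axis). Diamonds are the 14 intermediate windows and circles the 47 others; the 14 average 47.9% in controls and 23.4% in mutants, the 47 average 49.0% and 18.95%.

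The remaining locus of 3 windows lay on chromosome 5 from 138163167 to 138167080. Dense mutants 11, 12 and 14 were at 16.7%, 8% and 3.45%. Sparse mutants 15, 19 and 20 were at 100%, 0% and 16.7%, and held-out controls 6, 7 and 8 at 50.0%, 100% and 0%, so the groups overlapped over their whole range.

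Windows with many mutant values showed how far mutants differed from each other. On chromosome 12 from 61238912 to 61242411, 9 mutants ran from 0% to 50.0% around a median of 9.09%, and held-out controls 6, 7 and 9 stood at 14.3%, 12.5% and 12.5%. On chromosome 2 from 33692828 to 33696327, 8 mutants ran from 0% to 100% around a median of 25.6%, and held-out controls 6, 7 and 8 stood at 50.0%, 66.7% and 0%. On chromosome 4 from 156313675 to 156317572, a locus of 2 windows, 8 mutants ran from 0% to 51.8% around a median of 10.7%, and held-out controls 6, 7 and 8 stood at 52.6%, 33.3% and 100%. In each of these 3 loci mutant and held-out control values overlapped.

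By chromosome, the dense mutant mean of the intermediate windows ran from 11.1% on chromosome 14 (5 windows), 12.03% on chromosome 19 (9 windows) and 14.2% on chromosome 7 (9 windows) to 31.0% on chromosome 1 (22 windows, 7 of them in the locus above). The choosing control means of the chromosomes ran only from 40.6% to 48.5%, a range the rule narrows.

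At the lower limit of the rule, the 188 intermediate windows with a lowest choosing value from 25% to 30% averaged 42.7% in the held-out controls and 23.7% in the dense mutants. The 118 windows with 5 values inside the limits and 1 from 20% to 25% averaged 50.8% and 22.6%. At the upper limit, the 68 intermediate windows with a highest choosing value from 70% to 75% averaged 42.9% in the held-out controls and 26.1% in the dense mutants (32.5% over all mutants). The 18 windows with 5 values inside the limits and 1 from 75% to 80% averaged 73.8% and 23.7% (20.7% over all mutants). Single held-out controls ranged from 48.3% to 100% in these 18 windows and from 18.5% to 57.6% in the 68 intermediate windows. The held-out mean was thus higher just outside the upper limit, but these ranges overlapped. The 74 windows with every choosing value from 30% to 70% averaged 51.2% and 25.2%.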

How the data were processed

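Single blastocysts were profiled by bisulfite sequencing after their polyadenylated RNA had been removed. Reads were processed by the authors with Trim Galore 0.4.4 and Bismark 0.18.2 on build GRCm39 (named in the submitters' processing notes). Levels of methylation were deposited by the authors in percent per promoter window and embryo; because of the repair below, the deposited columns are treated as a score until repaired. The way calls were combined and any coverage minimum are not given in the sources at hand. Without counts the precision of a level is unknown, and few reads give coarse levels. Of 54080 rows, 46 repeats were dropped. Of 492079 values, 1597 were whole numbers over 100, read as percents without their decimal point and divided by 1000; 15 intermediate windows had such a value. Columns of no sample numbered 0.

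The members, limits and lists were chosen with earlier results of these data known. Windows that overlapped were joined into loci. Named were loci of 3 or more windows, the 5 with most mutant values per window, the 6 with the highest and the 6 with the lowest dense mutant mean, and windows past the threshold. Gene lists could not be used on GRCm39 windows. The main fit was limma 3.58.1 (lmFit and eBayes, R 4.3.3) on the untransformed percent, mutants against held-out controls, with Benjamini-Hochberg adjustment. Windows that varied within neither group were left out, since tests on values shuffled between the embryos of each window made calls there. Tables were made with Python 3.11.15 and pandas 2.3.3. Alternatives covered the limits, scale, test, coverage and single embryos.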

Additional observations from a re-analysis of the deposited data

Results flagged for a closer look

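Mutant replicate 15 stood at 100% in the chromosome 5 locus from 138163167 to 138167080, where the other 5 mutants with a value lay at 16.7% or below. Its gap to the next embryo was 0.833 of the range of the group, above the limit of 0.625 for 6 embryos. Of 15 groups of values checked this was the single one past its limit, and chance gives about 1 in 20.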

How the results depend on the processing

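The count of 291 intermediate windows follows from the limits: it was 74 with limits of 30% to 70%, 467 with 20% to 80%, and 396 to 580 with each choosing control left out in turn (512 without replicate 1, 580 without replicate 10). The mutant difference of -18.3 points kept its sign in all settings run, from -9.52 points without values of exactly 0% and 100% to -26.2 points in embryos with at least 100 values. It was -10.1 points for windows chosen on controls 1, 3 and 5 and -16.6 points for windows chosen on controls 2, 4 and 10, each read in the other 3 choosing controls and the dense mutants. The 45 windows past the limma threshold became 1 with at least 3 held-out control and 5 mutant values, 0 with trend and robust fitting (514 unadjusted), 8 on the arcsine scale, 0 with the rank-sum test (209 unadjusted), 12 with dense mutants alone, 3 with sparse mutants alone, and 14 to 61 with an embryo left out (14 without mutant 12, 19 without control 7). The 0 intermediate windows among them became 1 without whole numbers over 100, 1 with dense mutants, 1 with sparse mutants, and 0 to 2 with an embryo left out (1 without control 6, 2 without control 9, 2 without mutant 11, 1 without mutant 13); the cause was not tested. Readings chosen on 5 controls, those outside the chromosome 12 stretch, those in embryos with at least 100 values, and the fit that kept windows without spread (64 windows past the threshold) were chosen after seeing the data. No paired analysis was possible because controls carry numbers 1 to 10 and mutants 11 to 20. With 2 to 4 held-out values per window, single windows could show only large differences, and the rank-sum test could hardly pass its adjusted threshold.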
